A study of Mus musculus with 7 samples.

Results

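Transcripts of the oncostatin M receptor pathway were described in the left ventricle of old mice with and without endothelial nitric oxide synthase. The 9 genes were 4 receptors (Osmr, Il6st, Lifr and Il6ra), the signalling genes Stat3 and Socs3, and 3 secreted acute-phase products (Lcn2, Cp and Serpina3n). They were read by every probe set that names exactly 1 of them, 25 of the 22626 non-control probe sets of the array. The genes were chosen by their place in the pathway and by the difference between the genotypes on these same arrays, where Osmr was among those that differed most. The values of the 9 genes are therefore a description and carry no test.

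Each of 7 male mice aged 21 months gave 1 left ventricle and 1 single-colour MOE430A oligonucleotide array. The labels name 3 of them eNOS (-/-), mice M4, M10 and M140, and 4 of them (+/+), mice M23, M125, M128 and M158. eNOS, encoded by Nos3, makes nitric oxide in the lining of blood vessels. The labels link old knockout males to failing heart function and name exercise as a keyword, but give no strain, no way in which the gene was disrupted and no exercise state of any mouse. Nothing beyond the mouse number says how the hearts were sampled, so that the spread between arrays holds mouse, dissection and hybridization together. In bulk tissue, fewer cells of a type and less RNA per cell cannot be told apart.

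The arrays were on one scale, their medians running from 671 to 699. The dimmest value was 86.5 to 92.3, and readings stopped at 44145 to 45552, a ceiling that no probe set of the 9 genes reached. Of the 10 cardiomyocyte markers, 7 were at that ceiling on all 7 arrays. Hybridization fell on 4 days, and only day 1 held both groups, knockout M140 and wild-type M128. Knockout M4 and M10 were on day 3, wild-type M125 on day 2, and wild-type M23 and M158 on day 4. The days coincided with the chip lots, so that outside day 1 genotype cannot be told apart from day or lot. Atrial muscle transcript differed widely within both groups, where Myl7 stood at 17557 for knockout M10 and at 16097 for wild-type M125 against 356 to 2926 on the other arrays. Of the 5 atrial markers only Nppa, the natriuretic peptide precursor, separated the groups, with 44868, 37741 and 45540 on knockout M4, M10 and M140 and 6717 to 32820 on the wild-type arrays. Its log2 difference was 1.80 ± 0.49 (SE) and 1.84 within day 1, with knockout M4 and M140 at the ceiling. The part of atrial or natriuretic peptide transcript in the levels of the 9 genes was not tested. The Nos3 probe set 1422622_at gave 1145, 1413 and 1135 for the mice called knockout and 791, 1163, 872 and 1058 for the others, a log2 difference of 0.35 ± 0.15 (SE; adjusted p = 0.42 by limma). No source used here places it inside or outside the disrupted stretch, and it therefore cannot serve as a check of the labels.

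Oncostatin M, leukaemia inhibitory factor and the interleukins related to interleukin 6 signal through receptors that share the chain gp130, encoded by Il6st. A second chain sets which cytokine is bound, and the receptors activate Janus kinases, which phosphorylate the transcription factor STAT3. STAT3 induces its own feedback inhibitor SOCS3 and, often together with C/EBP factors, genes of the acute-phase response. In heart muscle, oncostatin M is known for acting on cardiomyocytes during stress and remodelling, and gp130 signalling is known for its part in hypertrophy and cell survival.

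The promoter windows of the 9 genes were searched for the letters of a STAT site, TTCNNNGAA, and of a C/EBP site, TTGCNNAA, on both strands. These windows run from 250 bases before to 50 after each start and come from RefSeq (GRCm38.p6), which gave 11 windows for the 9 genes. Of all 32851 windows of the same length, 8.3% hold TTCNNNGAA and 10.8% hold TTGCNNAA. The 4 genes with the highest differences between the groups, and Socs3 as the 1 gene with the STAT letters, are shown, with matches to either motif in capitals.
Osmr, chr15:6874264-6874563, minus strand: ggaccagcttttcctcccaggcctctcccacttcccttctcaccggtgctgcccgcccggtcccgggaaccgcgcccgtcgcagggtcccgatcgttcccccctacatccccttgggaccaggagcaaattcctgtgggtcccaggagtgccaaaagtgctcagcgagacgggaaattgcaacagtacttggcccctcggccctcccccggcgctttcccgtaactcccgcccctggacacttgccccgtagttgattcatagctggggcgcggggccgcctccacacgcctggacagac
Serpina3n, chr12:104406458-104406757, plus strand: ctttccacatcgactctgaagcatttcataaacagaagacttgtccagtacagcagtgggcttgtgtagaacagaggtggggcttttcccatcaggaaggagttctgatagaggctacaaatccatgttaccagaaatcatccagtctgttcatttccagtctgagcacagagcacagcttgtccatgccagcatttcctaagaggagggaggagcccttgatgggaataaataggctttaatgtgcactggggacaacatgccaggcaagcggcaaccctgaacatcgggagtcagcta
Cp, second start site, chr3:19956999-19957298, plus strand: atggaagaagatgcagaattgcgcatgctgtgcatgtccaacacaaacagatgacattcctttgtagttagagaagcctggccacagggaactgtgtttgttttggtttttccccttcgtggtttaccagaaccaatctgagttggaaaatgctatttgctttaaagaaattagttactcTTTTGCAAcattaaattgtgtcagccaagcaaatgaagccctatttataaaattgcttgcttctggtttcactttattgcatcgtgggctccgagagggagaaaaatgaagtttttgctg
Lcn2, chr2:32387690-32387989, minus strand: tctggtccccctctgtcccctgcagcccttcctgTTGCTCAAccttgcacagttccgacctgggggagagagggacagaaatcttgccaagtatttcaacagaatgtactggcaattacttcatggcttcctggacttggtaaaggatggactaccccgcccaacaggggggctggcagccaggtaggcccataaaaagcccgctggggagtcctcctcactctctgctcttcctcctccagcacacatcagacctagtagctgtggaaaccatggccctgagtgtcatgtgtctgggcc
Socs3, chr11:117969317-117969616, minus strand: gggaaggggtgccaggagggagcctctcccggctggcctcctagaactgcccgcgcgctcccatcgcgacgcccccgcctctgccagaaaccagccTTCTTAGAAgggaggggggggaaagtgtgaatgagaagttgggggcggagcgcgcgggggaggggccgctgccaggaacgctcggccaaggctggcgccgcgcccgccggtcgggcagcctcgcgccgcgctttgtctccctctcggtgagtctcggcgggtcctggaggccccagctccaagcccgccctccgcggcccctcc
Socs3 holds TTCTTAGAA, whose first base lies at -154 from the start. Lcn2 holds the C/EBP letters at -216 as TTGCTCAA, and the second start site of Cp holds them at -70 as TTTTGCAA, a match on the other strand. The windows of Osmr and Serpina3n, like those of Il6st, Lifr, Il6ra and Stat3, hold neither set of letters. The 2 motifs do not overlap in any window shown.

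On the probe set of each gene that was brightest among those tested, the 3 knockout arrays stood clear above the 4 wild-type arrays for Osmr, Cp and Serpina3n, and below them for Il6ra. Lcn2 and Il6st were higher and Lifr was lower in the knockout mean, with groups that overlapped. Stat3 and Socs3 had overlapping groups and the smallest upward differences. Over all 8869 genes tested, 5.28% had all knockout arrays above and 4.88% all of them below the wild type. By limma, 0.0% of the 13836 tested probe sets reached an adjusted p under 0.05, while 11.8% had an unadjusted p under 0.05. Of the 25 probe sets, 18 were bright enough to be tested, and each of the 9 genes had at least 1 of these. Counted by probe set, the knockout arrays were all above for 8 of the 25 and all below for 1, where 3.59% of the 22626 lay above and 3.59% below. Among the 18 tested the counts were 7 and 1, beside 4.97% and 4.34% of the 13836 tested. Cp alone gave 6 of the 8 and 5 of the 7 above. Since the genes were chosen partly by this difference, the shares beside these counts are no test of them.

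**Figure D1:**
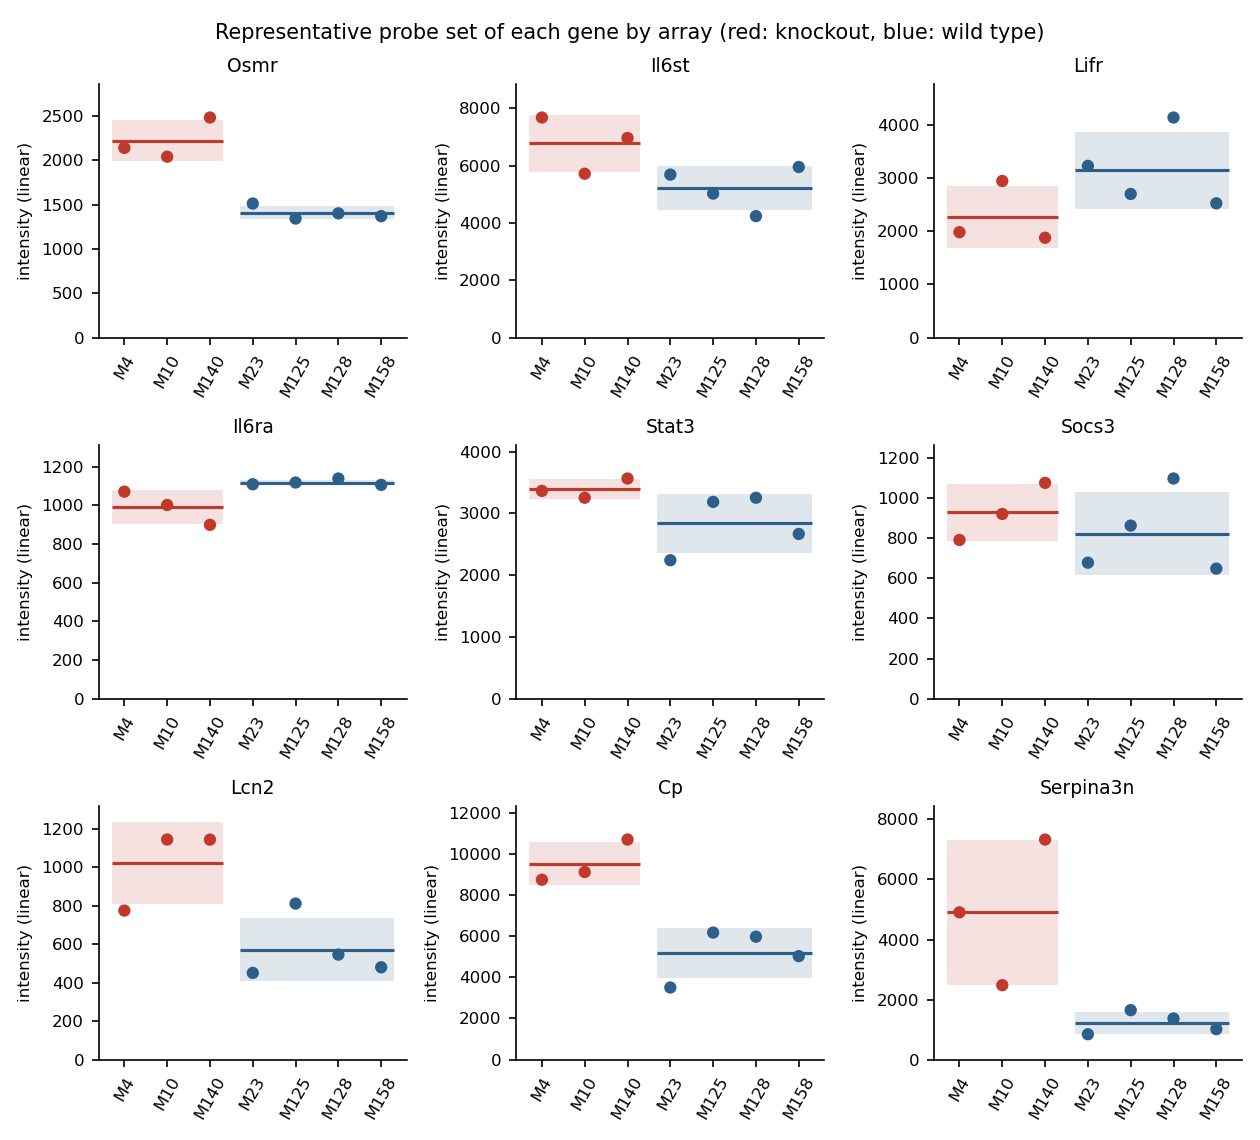
Intensity (linear scale, from 0) of the brightest tested probe set of each of the 9 genes, 1 point per array, knockout in red and wild type in blue, with the group mean as a line and 1 SD as a band (n = 3 and 4). Osmr, Cp and Serpina3n show no overlap with the knockout above, Il6ra none with the knockout below, and the other 5 overlap.

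Osmr encodes the signalling chain that pairs with gp130 to bind oncostatin M. Its probe set 1418674_at read 2142, 2042 and 2484 on knockout M4, M10 and M140, and 1514, 1344, 1403 and 1371 in wild-type mice M23, M125, M128 and M158. The 3 knockout arrays were all higher than the 4 wild-type arrays, and the wild-type arrays lay close together. The knockout mean was 2223 ± 232 (SD, n = 3) against 1408 ± 74.5 (SD, n = 4) in the wild type, a log2 difference of 0.65 ± 0.11 (SE). Within day 1 the difference between knockout M140 and wild-type M128 was 0.82.

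The other Osmr probe set, 1418675_at, did not show this. It read 445, 468 and 442 on the knockout arrays and 465, 487, 465 and 465 on the wild-type arrays, a log2 difference of -0.06. It was too dim to be tested, and 6 distinct values stood on 7 arrays. Averaged over both probe sets, the difference of Osmr was 0.30. The higher level of Osmr therefore rests on 1 probe set.

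Il6st encodes gp130, the chain common to the whole family. Its tested probe set 1452843_at read 7673, 5714 and 6959 on knockout M4, M10 and M140, and 5683, 5021, 4236 and 5948 in wild-type mice M23, M125, M128 and M158. Knockout M4 and M140 were above every wild-type array, whereas knockout M10 was below wild-type M158. The knockout mean was 6782 ± 991 (SD, n = 3) against 5222 ± 764 (SD, n = 4) in the wild type, a log2 difference of 0.38 ± 0.17 (SE). Its other 2 probe sets were dim and differed by -0.06 and 0.01 on the log2 scale.

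Lifr encodes the chain that pairs with gp130 to bind leukaemia inhibitory factor. Lifr and Osmr are neighbouring protein-coding genes on chromosome 15 in the RefSeq gene table, and they differed in opposite directions. The brightest Lifr probe set, 1454984_at, read 1983, 2946 and 1878 on knockout M4, M10 and M140, and 3229, 2701, 4139 and 2525 in wild-type mice M23, M125, M128 and M158. Knockout M4 and M140 were below every wild-type array, and knockout M10 lay among them. The knockout mean was 2269 ± 589 (SD, n = 3) against 3149 ± 725 (SD, n = 4) in the wild type, a log2 difference of -0.47 ± 0.22 (SE). The difference was -1.13 within day 1, where wild-type M128 was the highest of all arrays, and -0.33 without M128. Its second tested probe set, 1450207_at, differed by -0.04 ± 0.11 (SE), the untested one by 0.04, and the mean of the 3 by -0.16.

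Il6ra encodes the chain that binds interleukin 6 itself. Its tested probe set 1422270_a_at read 1070, 1001 and 899 on knockout M4, M10 and M140, and 1108, 1117, 1138 and 1105 in wild-type mice M23, M125, M128 and M158. The wild-type arrays were nearly equal, and all 3 knockout arrays were lower, knockout M4 by little. The knockout mean was 990.0 ± 86.4 (SD, n = 3) against 1117 ± 14.8 (SD, n = 4) in the wild type, a log2 difference of -0.18 ± 0.08 (SE). It was -0.11 without knockout M140, -0.11 with array weights and -0.34 within day 1. On its dim second probe set 3 distinct values stood on 7 arrays, and the log2 difference was -0.07.

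Stat3 encodes the transcription factor that gp130 receptors activate, mainly through phosphorylation, which an array does not measure. Its brightest probe set 1460700_at read 3365, 3254 and 3565 on knockout M4, M10 and M140, and 2242, 3187, 3254 and 2668 in wild-type mice M23, M125, M128 and M158. Knockout M10 and wild-type M128 had the same value, so the groups met there. The log2 difference was 0.27 ± 0.16 (SE), 0.13 within day 1 and 0.16 without wild-type M23. The 2 other probe sets, both tested, differed from it: 1424272_at by 0.06 ± 0.09 (SE), and 1426587_a_at by -0.52 ± 0.25 (SE). The mean of the 3 probe sets differed by -0.06, so that the direction of Stat3 depends on the probe set.

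Socs3 encodes the inhibitor that binds gp130 and ends the signal. Its brightest probe set 1455899_x_at read 791, 921 and 1076 on knockout M4, M10 and M140, and 678, 863, 1097 and 648 in wild-type mice M23, M125, M128 and M158. The highest array of all was a wild-type array, M128, and the groups overlapped. The log2 difference was 0.19 ± 0.19 (SE), within the spread of the arrays. It was -0.03 within day 1 and -0.08 without wild-type M23 and M158. The other 2 probe sets differed by 0.07 and -0.11, and 1416576_at, the lower one, is the only one of the 3 without the x suffix, which the array's maker gives to probe sets that can bind other transcripts.

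**Figure D2:**
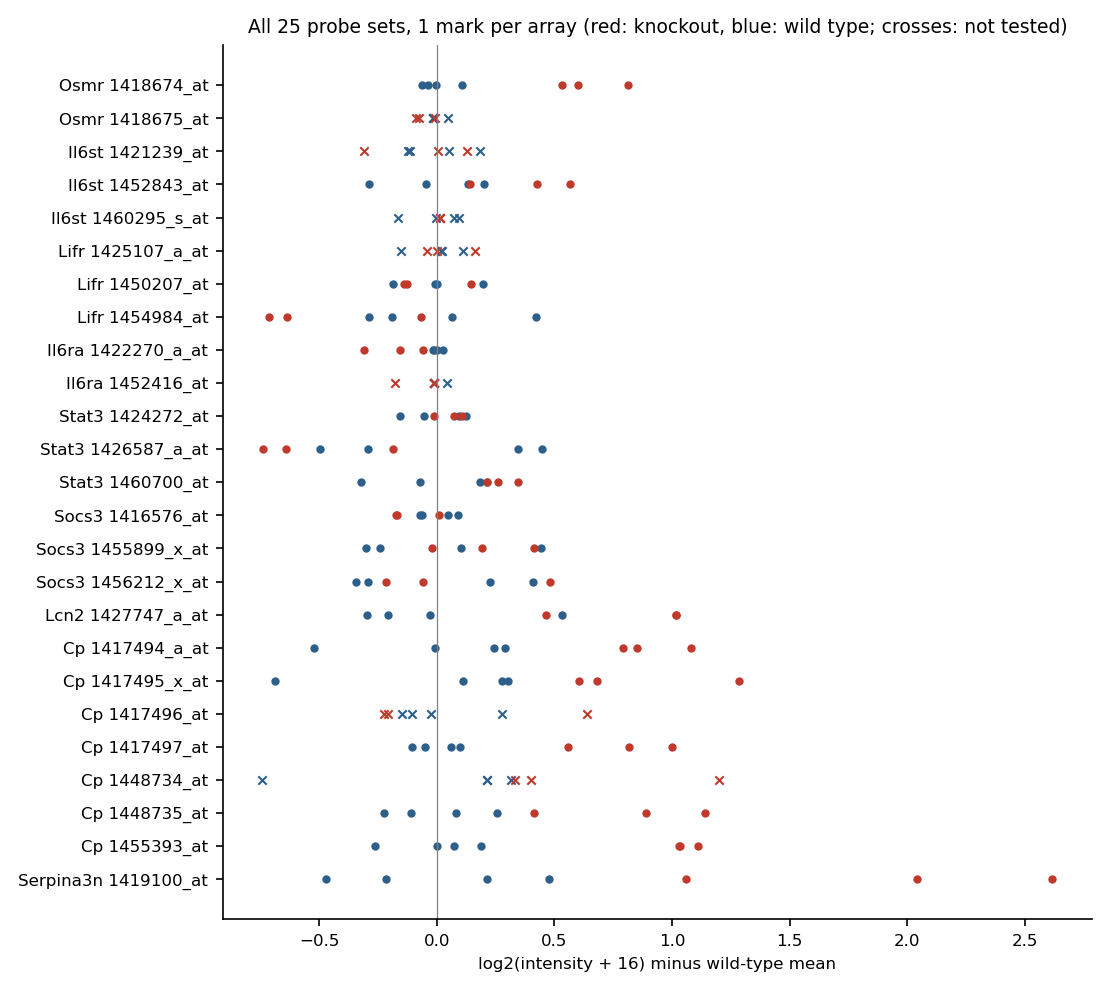
Each of the 25 probe sets of the 9 genes (rows) by array, as log2(intensity + 16) minus the mean of the wild-type arrays (horizontal axis), knockout in red and wild type in blue, with crosses for the 7 probe sets too dim to be tested. Red marks stand to the right of all blue marks for 8 probe sets, 6 of them of Cp, and to the left of them for 1, of Il6ra.

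Cp encodes ceruloplasmin, the copper-carrying ferroxidase of plasma, and was read by 7 probe sets. All 7 differed upward, and the 5 tested ones differed by 0.79 to 1.06 on the log2 scale. All 5 had the knockout arrays above the wild-type arrays, beside 4.97% of all tested probe sets. They read the same gene in the same mice, and 1417495_x_at among them has the x suffix. The brightest, 1417494_a_at, read 8739, 9112 and 10692 on knockout M4, M10 and M140, and 3505, 6171, 5972 and 5028 in wild-type mice M23, M125, M128 and M158. The lowest knockout array was above the highest wild-type array. Its knockout mean was 9515 ± 1036 (SD, n = 3) against 5169 ± 1217 (SD, n = 4) in the wild type, a log2 difference of 0.91 ± 0.21 (SE).

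The probe set 1455393_at of Cp read 9228, 9213 and 9741 on the knockout arrays and 3747, 5127, 4500 and 4738 on the wild-type arrays. The 3 knockout arrays were nearly equal. Its log2 difference was 1.06 ± 0.14 (SE) over all arrays and 1.11 within day 1. Wild-type M23 had the lowest wild-type value on 5 of the 7 probe sets, and knockout M140 had the highest knockout value on 6 of them. The 1 probe set of Cp with overlapping groups, 1417496_at, was dim and untested, and read 431, 425 and 788 against 450, 609, 491 and 464.

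**Figure D3:**
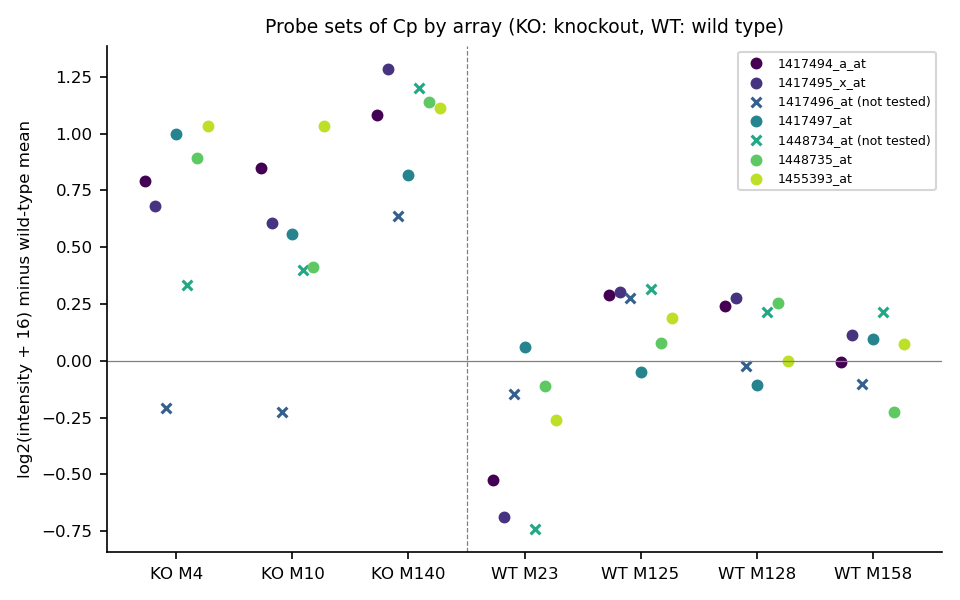
The 7 probe sets of Cp (colours) on each array, as log2(intensity + 16) minus the mean of the 4 wild-type arrays, with crosses for the 2 untested probe sets. The 5 tested probe sets stand above 0 on all 3 knockout arrays, and wild-type M23 is lowest among the wild-type arrays on 5 of the 7.

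Serpina3n encodes a secreted inhibitor of serine proteases, related to human alpha-1-antichymotrypsin. It had the highest difference of the 9 genes. Its probe set 1419100_at read 4906, 2480 and 7331 on knockout M4, M10 and M140, and 846, 1649, 1370 and 1015 in wild-type mice M23, M125, M128 and M158. Every knockout array was higher than every wild-type array, but the knockout arrays differed widely among themselves. The knockout mean was 4906 ± 2426 (SD, n = 3) against 1220 ± 359.8 (SD, n = 4) in the wild type, a ratio of 4.02 and a log2 difference of 1.91 ± 0.37 (SE). The difference was 2.41 within day 1, 1.55 without knockout M140 and 2.33 without knockout M10. Serpina3n lies beside its relative Serpina3m on chromosome 12, and whether related transcripts bind this probe set was not tested.

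Fibroblast markers were also uneven among the knockout arrays. The 10 markers, all tested, summed to 77027, 30567 and 105433 on knockout M4, M10 and M140 and to 37790 to 52365 on the wild-type arrays. The spread was wide for the matrix genes Postn, at 21455, 1684 and 37003, and Col3a1, at 17213, 1691 and 19869, while Tcf21, a fibroblast transcription factor, read 1590, 1500 and 1669. Knockout M10, with the lowest Serpina3n of the knockout arrays, had the lowest sum of all 7, and its Serpina3n was still above every wild-type array. Among the wild-type arrays Serpina3n was highest on M125 and the marker sum on M128. None of the 10 markers had an unadjusted p under 0.05. The part of fibroblast transcript in the level of Serpina3n was not tested beyond these values.

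Lcn2 encodes lipocalin-2, an iron-withholding protein of neutrophils and of stressed epithelium and heart. Its only probe set, 1427747_a_at, read 775, 1144 and 1144 on knockout M4, M10 and M140, and 451, 811, 546 and 480 in wild-type mice M23, M125, M128 and M158. Knockout M10 and M140 were above all wild-type arrays, and knockout M4 was just below wild-type M125. The knockout mean was 1021 ± 213 (SD, n = 3) against 572 ± 164 (SD, n = 4) in the wild type, a log2 difference of 0.83 ± 0.22 (SE) and 1.05 within day 1.

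Neutrophil markers, of which 8 of 9 were tested, summed to 8026, 17121 and 10172 on knockout M4, M10 and M140 and to 6903 to 12576 on the wild-type arrays. S100a9, the brightest of them, read 1237, 6470 and 2969 on the knockout arrays and 862, 942, 4241 and 683 in wild-type mice M23, M125, M128 and M158. Wild-type M128 thus had more S100a9 than knockout M140 but less Lcn2, and wild-type M125, with the most Lcn2 of its group, had S100a9 at 942. The part of neutrophil transcript in the level of Lcn2 was not tested beyond these values. Of the 8 liver markers 6 were tested and summed, with Fgb, to 4460 to 5159 on the knockout and 4258 to 5041 on the wild-type arrays. Alb, the albumin transcript of liver, read 483 to 611 against 534 to 721. Of the 6, only Ttr was higher at an unadjusted p under 0.05, at 884 to 1065 on the knockout and 749 to 876 on the wild-type arrays, without overlap.

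**Figure D4:**
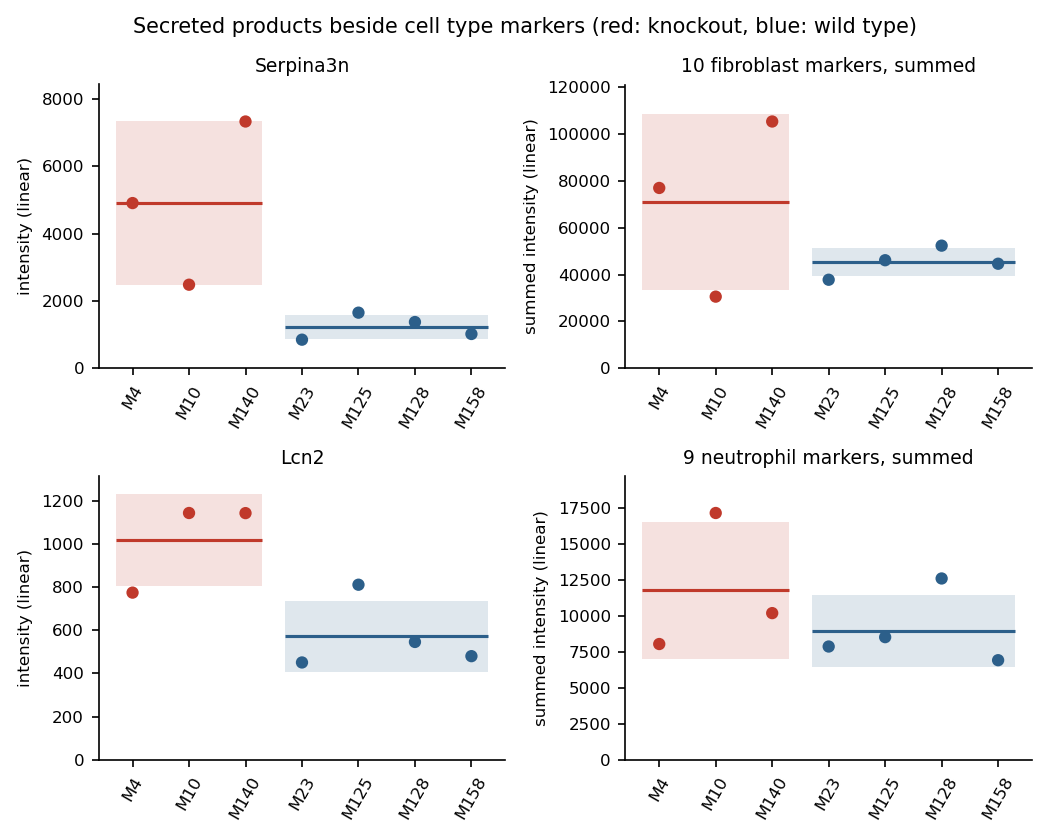
Intensity of Serpina3n and Lcn2 (left) and the summed intensity of 10 fibroblast and 9 neutrophil markers (right) on each array, linear scale from 0, knockout in red and wild type in blue, with the group mean as a line and 1 SD as a band (n = 3 and 4). Knockout M10 has the lowest fibroblast sum, 30567, and the highest neutrophil sum, 17121, of the 7 arrays.

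The 9 genes did not order the arrays alike. Of the 3 knockout arrays, M140 was highest for 5 genes (Osmr, Stat3, Socs3, Cp and Serpina3n) and lowest for Lifr and Il6ra. Knockout M10 was lowest for 4 (Osmr, Il6st, Stat3 and Serpina3n) and highest for Lifr and Lcn2. Among the wild-type arrays M23 was lowest for 4 (Stat3, Lcn2, Cp and Serpina3n) and yet highest for Osmr. Wild-type M125, which like knockout M10 had high Myl7, was highest for all 3 secreted products. Without M10 and M125 the log2 differences were 0.69 for Osmr, 1.03 for Cp, 2.49 for Serpina3n and 0.92 for Lcn2.

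The genes most like Osmr over the 7 arrays, by Pearson's r of log2(intensity + 16) among 8868 other genes, were Nras, Tmbim1, Atp2c1, Ehd4 and Eloa. Their r was 0.97, 0.97, 0.97, 0.96 and 0.96, and their Spearman's rho 0.82, 0.79, 0.89, 0.82 and 0.64. These coefficients describe 7 arrays that fall into 2 groups and follow the difference between the groups more than the order within them. Nras, a small signalling GTPase, read 1754, 1635 and 1891 on knockout M4, M10 and M140 and 1149 to 1298 on the wild-type arrays. Among the other 8 genes described here, r with Osmr ran from 0.90 for Serpina3n, 0.81 for Cp, 0.75 for Lcn2 and 0.75 for Il6st to 0.55 for Stat3 and 0.38 for Socs3. It was -0.68 for Lifr and -0.87 for Il6ra.

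Other genes of the pathway mostly showed small differences. Of 94 genes in 5 lists, 82 had a probe set of their own and 58 were tested. None passed an adjusted p of 0.05 by limma. At an unadjusted p under 0.05, 6 were higher in the knockout and 2 were lower, against 6.74% and 5.4% of all genes tested. The median log2 difference of the 58 was 0.08, beside -0.00 over all 8869 genes.

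Of the ligands, 3 were bright enough to be tested. Of the 9 gp130 cytokines, Osm, Cntf and Il27 had no probe set naming them alone and were not analysed here. Lif, Il6 and Il11 were not bright enough to be tested: Lif read 484 to 489 against 462 to 528, Il6 read 135 to 142 against 138 to 140, and Il11 read 324 to 332 against 328 to 407. Ctf1, which encodes cardiotrophin-1, a gp130 ligand of heart muscle, was the cytokine that differed most. It read 1097, 1119 and 903 on knockout M4, M10 and M140, and 1156, 1621, 1593 and 1394 in wild-type mice M23, M125, M128 and M158. All knockout arrays were lower, with a log2 difference of -0.46 ± 0.14 (SE; adjusted p = 0.294 by limma) and of -0.81 within day 1. Clcf1 and Ebi3 differed by -0.10 and -0.01 (adjusted p = 0.729 and 0.97).

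Among the other receptors, kinases and STATs, 9 of 12 could be tested, 0 of them with an unadjusted p under 0.05, and their median was -0.06. Jak1, a kinase bound to gp130, had the smallest p and differed by -0.46 ± 0.21 (SE; adjusted p = 0.444 by limma). Its 3 probe sets ran from -0.46 to -0.08, and their mean differed by -0.20. Stat5a and Tyk2 differed by -0.14 and 0.09. All 12 inhibitors were tested, and the median was 0.05. Ptpn11, the phosphatase SHP2, which binds gp130 at the same site as SOCS3, read 18485 ± 3347 (SD, n = 3) against 11475 ± 657 (SD, n = 4). The groups did not overlap, and the log2 difference was 0.67 ± 0.13 (SE; adjusted p = 0.172 by limma) on its bright probe set, with -0.11 and 0.15 on 2 dim ones and 0.24 for the mean of the 3. Ptpn6 and Ptpn1 differed by 0.09 and 0.14.

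Of 25 STAT3 response genes 21 were tested, with a median of 0.11. By that unadjusted criterion 2 were higher and 1 was lower, beside 6.74% and 5.4% of all genes tested. Mcl1, which protects cells from apoptosis, differed by 0.62 ± 0.15 (SE; adjusted p = 0.246 by limma) on its brightest probe set. That probe set, 1437527_x_at, has the x suffix. The difference ran from 0.01 to 0.62 over the 6 Mcl1 probe sets and was 0.34 for their mean. Vegfa, a growth factor of blood vessels, differed by 0.38 ± 0.15 (SE; adjusted p = 0.403 by limma) by 0.02 within day 1, and by 0.20 for the mean of its probe sets. Cebpb, a transcription factor of the acute-phase response, was the lower one. It read 2495, 3138 and 3880 on knockout M4, M10 and M140, and 5196, 5969, 6346 and 4234 in wild-type mice M23, M125, M128 and M158. All knockout arrays were below all wild-type arrays, with a log2 difference of -0.78 ± 0.20 (SE; adjusted p = 0.254 by limma). Its other probe set differed by -0.11, and the mean of both by -0.44.

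Of 36 other acute-phase genes, 13 were tested, with a median of 0.09. By the same criterion 3 were higher and 0 lower, beside 6.74% and 5.4% of all genes tested. The list was chosen with earlier results of these data known. It was not split into genes that rise and genes that fall in the acute-phase response. Its counts and median are therefore no measure of that response. The 17 that had a probe set but were too dim included the classical liver products Saa1, Saa2, Hp, Orm1, Fga and Crp. Serpina1b was the only one of the 17 whose groups did not overlap. Over all 22626 probe sets, 3.59% had all knockout arrays above and 3.59% all of them below. Serpina1b read 503 to 678 on the knockout and 285 to 398 on the wild-type arrays. That probe set, 1451513_x_at, has the x suffix. The 2 Serpina1b probe sets differed by 0.70 and 0.89 on the log2 scale. Lbp, which binds bacterial lipopolysaccharide in plasma, read 1178, 782 and 1359 on knockout M4, M10 and M140, and 602, 791, 727 and 673 in wild-type mice M23, M125, M128 and M158. Only knockout M10 lay among the wild-type arrays, and the log2 difference was 0.62 ± 0.18 (SE; adjusted p = 0.286 by limma). Ttr, the thyroxine carrier transthyretin, differed by 0.30 ± 0.09 (SE; adjusted p = 0.294 by limma) on its tested probe set by up to 1.38 on the dim ones, and by 0.84 for the mean of the 3. Serping1, the inhibitor of complement C1, differed by 0.54 ± 0.23 (SE; adjusted p = 0.414 by limma), with overlapping groups, and by 0.82 without knockout M10.

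**Figure D5:**
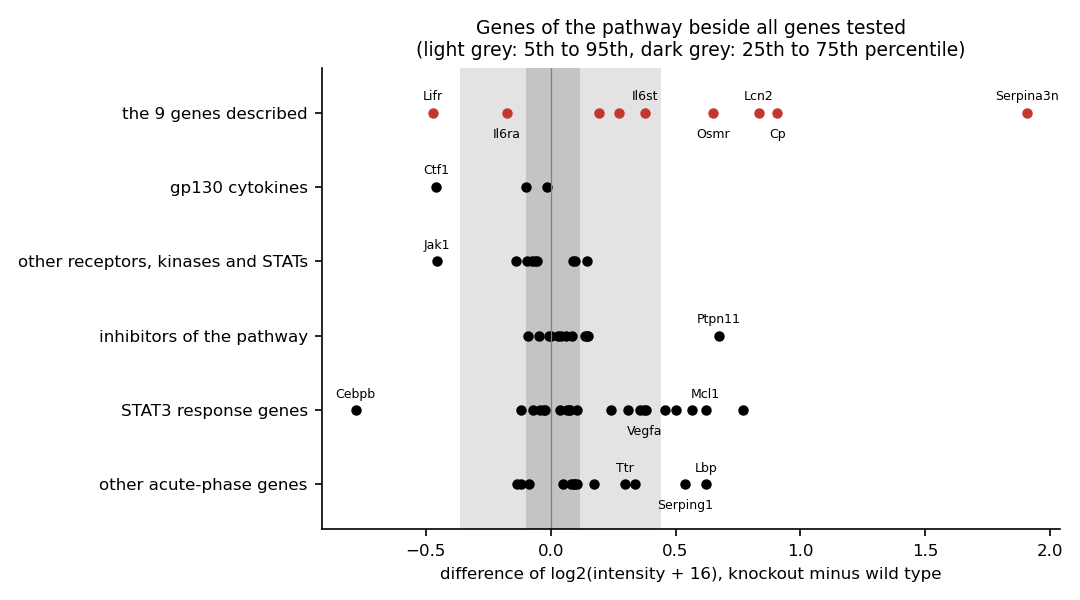
Difference of log2(intensity + 16), knockout minus wild type, for the brightest tested probe set of the 9 genes described (red) and of the tested genes of 5 pathway lists (black), 1 point per gene. The grey bands hold the central part of all 8869 genes tested: the 5th to 95th percentile runs from -0.36 to 0.44 and the 25th to 75th from -0.10 to 0.12.

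Markers of macrophages, a source of oncostatin M, stood higher on the knockout arrays for part of the list. Of 10 markers 8 were tested, and 4 (Csf1r, Cd68, Cd163 and Fcgr3) were higher at an unadjusted p under 0.05, with 0 lower, against 6.74% higher and 5.4% lower among all genes tested. The summed level was 27230 to 34155 on the knockout and 21196 to 30265 on the wild-type arrays. The sum of wild-type M128 exceeded those of knockout M4 and M10 through Lyz2, at 11284, and Mrc1, at 2934. The 4 markers with that p each had all knockout arrays above all wild-type arrays, beside 5.28% of all genes tested. This separation comes from the same contrast as their p. The other tested markers, Adgre1, Mrc1, Lyz2 and Ccr2, had overlapping groups. Of the untested ones, Fcgr1 had all knockout arrays above and Cx3cr1 overlapped. Csf1r, the receptor of a macrophage growth factor, was 10895 to 12002 on the knockout and 7150 to 9336 on the wild-type arrays. The part of macrophage transcript in the levels of the 9 genes was not tested. Endothelial markers summed to 18486 to 21589 and 17143 to 22119, with 0 of 8 at an unadjusted p under 0.05. Mesothelial, adipocyte and smooth muscle markers had 0 higher and 0 lower at that p, with only 3 of 6, 1 of 5 and 6 of 7 tested. The untested mesothelial marker Wt1 read 426 to 566 on the knockout and 348 to 416 on the wild-type arrays, without overlap. Over all probe sets, 3.59% had all knockout arrays above. The other mesothelial markers with a probe set, Msln, Upk3b, Krt19 and Krt8, had overlapping groups. Of 3 tested T and B cell markers 1 was lower, Cd8a, by -0.24, and of 10 cardiomyocyte markers 1 was lower, Ckm, by -0.66 over all arrays and by -0.04 within day 1. Of the red cell markers, Alas2 and Hbb-b2, the 2 tested of 6, were both higher, beside the same 6.74% of all genes. Within day 1 they differed by 0.29 and 0.02. The Hbb-b2 probe set, 1427866_x_at, has the x suffix.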

How the data were processed

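Left ventricles of 7 mice were measured, 1 MOE430A array each. The authors deposited intensity values on a linear scale for 22690 probe sets; how they were extracted, corrected and scaled is not stated in the sources used here. The deposited experiment sheets are other information with no measurement and, per the file headers, give the hybridization days, which coincided with 4 chip lots. Left out were 64 control probe sets. Values were taken as log2(intensity + 16), so that differences of dim probe sets are understated. Testing was limited to the 13836 probe sets brighter than their own array's 40th percentile on 3 or more arrays. A platform table named exactly 1 gene for 20380 probe sets. A gene was represented by its brightest tested probe set.

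The groups were compared by limma 3.58.1 in R 4.3.3 (lmFit and eBayes with trend, two-sided, no covariate), p-values adjusted by Benjamini-Hochberg across the 13836, threshold 0.05. The fit was also run on simulated data with independent noise and no effect of day or lot. That run therefore does not show how the fit behaves under the days and lots of these arrays. The 9 genes and all lists were chosen with earlier results of these data known, and the lists are not independent evidence. Named were all probe sets of the 9 genes, Nos3, the gp130 cytokines, the 3 smallest p of each list and the 5 genes most like Osmr; marker genes, Nras' values and untested acute-phase genes were named after their values were seen. Precision is limited by the number of arrays, 3 and 4. Nothing is paired, since mouse numbers are not shared. Alternatives covered the offset, normalization, filter, trend, array weights, day, background correction, averaging of probe sets and each array left out; leaving out M10 with M125 or M23 with M158 was added after the data were seen.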

Additional observations from a re-analysis of the deposited data

Results flagged for a closer look

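Of 41 probe sets screened, 4 had 1 wild-type array far from the other 3, measured as its gap to the nearest array over the range of the group (critical value 0.829 for 4 arrays); chance flags about 1 in 20. For the dim Osmr probe set 1418675_at the share was 0.972, with wild-type M125 at 487 and the others at 465. For the dim Il6ra probe set 1452416_at it was 1.0, where 3 wild-type arrays share 1 value, 304, with knockout M4 and M10. That tie fixes the share at 1.0. The other flagged probe sets also hold tied wild-type values, while the rate of 1 in 20 applies to values without ties. For the untested Cp probe set 1448734_at it was 0.869, with wild-type M23 at 176 against 356 to 383. For Tyk2 it was 0.925, with wild-type M125 at 1130 against 1201 to 1207.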

How the results depend on the processing

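The number of probe sets past an adjusted p of 0.05 was 0 in the reported fit and 619 with limma array weights, which gave knockout M4 a weight of 3.81 and the other arrays 0.373 to 1.87. It was 1 with the 60th percentile filter, 1 with day as a fixed block, 2 without M10 and M125, and 1 without M23 and M158. Leaving out 1 array gave 0 to 74, the highest without knockout M10, and 27 without knockout M140. With array weights, Ptpn11, Mcl1, Lbp, Ttr and Cebpb passed (adjusted p = 0.0194, 0.0372, 0.0372, 0.0469 and 0.0483). Over all alternatives their adjusted p ran up to 0.727, 0.796, 0.858, 0.847 and 0.796. Ptpn11 also passed without knockout M10 (adjusted p = 0.0333).

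Osmr, Il6st, Lifr, Il6ra, Lcn2, Cp and Serpina3n kept their direction under the 18 alternatives run for each. These count the same day 1 difference both as a fixed block and as taken directly. Since day 1 alone holds both groups, day as a fixed block gives the difference within that day: 0.82 for Osmr, 0.71 for Il6st, -1.13 for Lifr and -0.34 for Il6ra. The mean of all probe sets gave 0.30 for Osmr, 0.11 for Il6st and -0.065 for Stat3. Socs3 was below 0 in 3 of the 18, where the same day 1 difference of -0.03 is counted both ways. Without 1 array, Osmr ran from 0.57 to 0.71, Serpina3n from 1.55 to 2.33, and Lcn2 from 0.74 to 1.02. Pathway genes lower at an unadjusted p under 0.05 numbered 2, and 4 with the day block, 5 without M23 and M158, and 1 to 4 without 1 array (1 without knockout M140, 4 without knockout M10). Those higher numbered 4 to 8. The cause of these changes was not tested. The 7 untested probe sets of the 9 genes were below the brightness filter, and no background level was measured. No paired analysis was possible because the groups share no mouse numbers.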
